A study of Anopheles gambiae with 9 samples.

Results

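In pedicels of Anopheles gambiae, the malaria mosquito, 111 transcripts were low in control females and high both in control males and in genetic females that lacked DsxF, the female-specific product of doublesex. They came from 106 of the 13845 genes of the table and were 0.691% of its 16066 transcripts. The pedicel is the antennal segment that holds the Johnston's organ, the mosquito ear. The groups were dsxF+/+ XX females, dsxF+/+ XY males and dsxF-/- XX intersex females, with 3 libraries each. Each library pooled the pedicels of many young adults that had spent several days on a light and dark cycle and were collected at the onset of dusk, and the study describes the libraries of a group as biological repeats. The dsxF+/+ mosquitoes were of the G3 strain and were separated by sex as pupae. The dsxF-/- mosquitoes came from a doublesexF mutant strain and were not separated by sex as pupae. Adults of all groups were sorted by sex and genotype into vials before the days on the light and dark cycle. Strain background, caging before this sorting and the disruption of DsxF therefore cannot be told apart in any comparison with dsxF-/- XX.

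Membership was decided by levels alone. A level is given in CPM, the estimated count of a transcript scaled to 1000000 counts in its library, and is not scaled for transcript length. A transcript was a member when its lowest CPM over the 3 dsxF+/+ XY and the 3 dsxF-/- XX libraries was at least 2 and at least 2 times its highest dsxF+/+ XX CPM after 0.5 CPM was added to the latter. The ratio of these last quantities is called the rule ratio here. Both comparisons with dsxF+/+ XX were used to choose the members, so their differences from dsxF+/+ XX are a description. The rule does not set dsxF+/+ XY against dsxF-/- XX. This comparison (MvI) is the one that was tested, on libraries that the rule also used.

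As background, doublesex encodes a transcription factor that is spliced into a male and a female form, and it sits at the end of the insect sex determination pathway. Disruption of the female exon in An. gambiae leaves genetic males unaffected and gives genetic females intersex features. The Johnston's organ contains ciliated sensory neurons whose cilia carry an axoneme, a microtubule bundle on which dynein motors can be mounted, and the transient receptor potential channels of these cilia turn vibration into current. Mosquito males use this organ to find flying females by their wingbeat tone, and the male organ is the more elaborate.

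The 9 libraries held between 14177255 and 18379886 estimated counts. In dsxF+/+ XX replicate 3, 23.7% of the counts fell on the 10 most abundant transcripts, against between 8.95% and 14.2% in the other 8 libraries. Transcripts of nanchung, a marker of Johnston's organ neurons, were present in every library at between 52.1 and 245 CPM, and nanchung is itself a member. Markers of muscle, fat body, eye or other tissues could not be looked up by name, so the share of such tissue in each pool was not analysed here. In these bulk pools, fewer cells of a type and less RNA per cell cannot be told apart.

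Together the members took 1.66%, 1.94% and 1.26% of all counts in the dsxF+/+ XX libraries, 6.69%, 6.62% and 6.59% in the dsxF-/- XX libraries and 9.02%, 10.3% and 9.98% in the dsxF+/+ XY libraries. Over members, the median of the group mean was 31.9 CPM in dsxF+/+ XX, 168 CPM in dsxF-/- XX and 220.4 CPM in dsxF+/+ XY. The median fold over dsxF+/+ XX was 5.89 in dsxF+/+ XY and 4.58 in dsxF-/- XX, and 34 and 22 members respectively exceeded 10-fold. The dsxF-/- XX libraries differed little from each other in this summed level, and all 3 lay between the female and the male libraries.

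Most of these transcripts were already present in females. The mean in dsxF+/+ XX was above 100 CPM for 30 members and below 5 CPM for 22, and 5 members stayed under 1 CPM in all 3 dsxF+/+ XX libraries. Listed counts of 0 occurred in at least 1 dsxF+/+ XX library for 4 members and in all 3 for 0 members. In dsxF+/+ XY, 18 members averaged over 1000 CPM, 91 lay between 10 and 1000 CPM and 2 were under 10 CPM. Group means in dsxF+/+ XY ran from 8.58 to 13967 CPM.

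**Figure D1:**
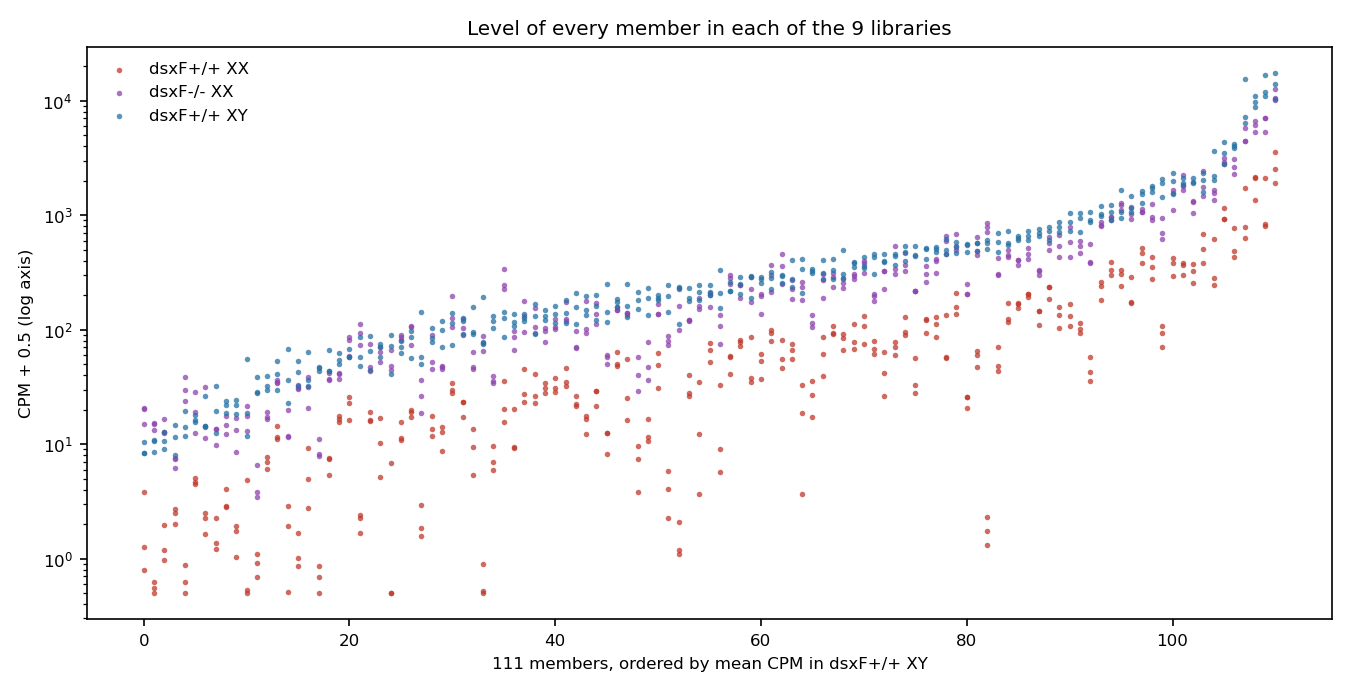
CPM plus 0.5 of each of the 111 members (log axis) in each of the 9 libraries, with members ordered by their mean in dsxF+/+ XY; each point is 1 library. The dsxF+/+ XX points lie below both other groups for every member, as the rule requires, and the dsxF-/- XX and dsxF+/+ XY points overlap for 54 members.

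Of the members, 16 carried a product name from the study's list of transcripts that it brought forward, and 8 of these belong to cilia and their motors. AGAP011540-RA, an axonemal dynein intermediate chain that ties the outer motor to the microtubule, stood at 25.5, 25.2 and 20.2 CPM in the dsxF+/+ XX libraries, 204, 251 and 203 CPM in dsxF-/- XX and 551, 478 and 562 CPM in dsxF+/+ XY. Its partner chain AGAP008689-RB had 27.3, 55.7 and 32.3 CPM in dsxF+/+ XX, 219, 217 and 216 CPM in dsxF-/- XX and 449, 535 and 443 CPM in dsxF+/+ XY. For both intermediate chains all dsxF+/+ XY libraries lay above all dsxF-/- XX libraries. Their separation from dsxF+/+ XX is required by the rule. In MvI both were higher in males, by 1.40 ± 0.17 and 1.26 ± 0.27 on the log2 scale (± SE; edgeR quasi-likelihood test, adjusted p = 0.00177 and 0.0214). The call of AGAP011540-RA was kept whichever library was left out, whereas that of AGAP008689-RB was lost in 5 of the 9 fits with 1 library left out (edgeR adjusted p between 0.0529 and 0.0908).

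The other 6 cilium-related members with a product name were not called in MvI. AGAP009594-RA, an axonemal dynein assembly factor that helps to build motors in the cytoplasm before they are carried into the cilium, was at 366, 381 and 297 CPM in dsxF+/+ XX, 1651, 2256 and 1797 CPM in dsxF-/- XX and 1842, 1922 and 2099 CPM in dsxF+/+ XY. The Tctex1 domain protein AGAP009318-RA, of a dynein light chain family, reached 56.9, 58.4 and 40.7 CPM in dsxF+/+ XX, 248, 299 and 281 CPM in dsxF-/- XX and 260.4, 218 and 216 CPM in dsxF+/+ XY. For these 2 transcripts the dsxF-/- XX and dsxF+/+ XY libraries overlapped, and the 95% intervals of the log2 difference (dsxF+/+ XY minus dsxF-/- XX) ran from -0.24 to 0.58 and from -0.52 to 0.27, inside a 2-fold change in either direction.

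For the remaining 4 of these members the interval was wider. It reached past 2-fold for AGAP003120-RA (0.12 to 1.23) and AGAP011441-RA (-0.35 to 1.78). For AGAP002548-RA (-0.07 to 0.88) and AGAP013430-RA (-0.85 to 0.996) it stayed inside. A stabilizer of axonemal microtubules, AGAP003120-RA, was measured at 131, 166 and 108 CPM in dsxF+/+ XX, 587, 434 and 786 CPM in dsxF-/- XX and 1044, 733 and 869 CPM in dsxF+/+ XY. The Meckelin-like AGAP002548-RA, whose vertebrate counterpart sits in the transition zone at the base of the cilium, had 89.8, 129 and 95.3 CPM in dsxF+/+ XX, 326, 466 and 368 CPM in dsxF-/- XX and 478, 401 and 536 CPM in dsxF+/+ XY. In both, 1 dsxF+/+ XY library lay within the range of dsxF-/- XX. AGAP013430-RA, a piercer of microtubule wall protein of the kind that lines the inside of axonemal doublets in vertebrates, was far scarcer, with group means of 1.63, 18.5 and 17.9 CPM in dsxF+/+ XX, dsxF-/- XX and dsxF+/+ XY. The dynein heavy chain AGAP011441-RA, a motor subunit, averaged 5.17, 29.6 and 43.7 CPM in the same order.

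Gene ontology terms in the study's enrichment tables placed further members in the cilium. AGAP001429-RA, annotated to particle B of intraciliary transport, the machinery that moves cargo out along the cilium, was measured at 57.1, 42.0 and 35.4 CPM in dsxF+/+ XX, 379, 393 and 560.2 CPM in dsxF-/- XX and 1066, 875 and 908 CPM in dsxF+/+ XY. AGAP006882-RA, annotated to axonemal dynein complex assembly, was at 26.0, 21.7 and 20.9 CPM, then 68.7, 69.9 and 97.1 CPM, then 209, 112 and 156 CPM in the same order of groups. Again all dsxF+/+ XY libraries lay above all dsxF-/- XX libraries for each transcript. Both were called higher in dsxF+/+ XY by edgeR, with log2 differences of 1.23 ± 0.22 (SE, adjusted p = 0.00983) and 1.14 ± 0.23 (SE, adjusted p = 0.0175). With 1 library left out the first lost its call in 1 of 9 fits, without dsxF-/- XX replicate 2 (edgeR adjusted p = 0.054), and the second in 4 (edgeR adjusted p between 0.0518 and 0.0889). AGAP000990-RA of the axonemal dynein complex, AGAP006134-RA, annotated to the motile cilium, and AGAP005468-RB, annotated to the transition zone, averaged 31.4, 18.1 and 43.4 CPM in dsxF+/+ XX, 135, 95.1 and 292 CPM in dsxF-/- XX and 126, 79.6 and 415 CPM in dsxF+/+ XY, and none of the 3 was called in MvI.

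Channel transcripts formed a second group, with 6 members from 5 genes. When the transcripts of a gene were summed, AGAP003709, AGAP005599 and AGAP008028 did not meet the rule (rule ratios 0.35, 1.76 and 1.34). Nanchung (AGAP012241-RA), a transient receptor potential channel subunit that Drosophila needs for hearing, was present at 65.3, 75.4 and 52.1 CPM in dsxF+/+ XX, 157, 209 and 199 CPM in dsxF-/- XX and 215, 201 and 245 CPM in dsxF+/+ XY. Its rule ratio of 2.07 was close to the threshold, and the 2 higher groups overlapped. The pH-sensitive chloride channel AGAP009616-RA was scarce in control females, at 1.18, 0.362 and 0.509 CPM in dsxF+/+ XX against 30.1, 32.6 and 29.6 CPM in dsxF-/- XX and 42.1, 31.9 and 52.9 CPM in dsxF+/+ XY. A second chloride channel gene of this kind, AGAP005599, contributed 2 transcripts, of which AGAP005599.R500 averaged 17.9 ± 14.5, 225 ± 39.7 and 319.6 ± 103 CPM (SD, n = 3) in dsxF+/+ XX, dsxF-/- XX and dsxF+/+ XY. The other, AGAP005599.R502, was scarcer, at 2.40, 1.44 and 0.0130 CPM in dsxF+/+ XX, 11.4, 19.3 and 10.98 CPM in dsxF-/- XX and 22.2, 67.3 and 36.2 CPM in dsxF+/+ XY. All of its dsxF+/+ XY libraries lay above all of its dsxF-/- XX libraries, a difference of 1.75 ± 0.75 on the log2 scale (SE; 95% interval 0.06 to 3.43) that edgeR did not call (adjusted p = 0.243).

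Of the potassium and calcium channel transcripts, AGAP003709-RD showed the larger contrast. It is 1 transcript of the large-conductance potassium channel, which opens to voltage and internal calcium together. Its level was 0.389, 0.0162 and 0.00233 CPM in dsxF+/+ XX, 87.5, 76.4 and 64.3 CPM in dsxF-/- XX and 74.6, 194 and 77.4 CPM in dsxF+/+ XY. AGAP008028-RA, the beta subunit of voltage-gated calcium channels, which brings the pore to the membrane, had 24.9, 55.1 and 15.8 CPM in dsxF+/+ XX, 134, 139 and 140.0 CPM in dsxF-/- XX and 128, 249 and 161 CPM in dsxF+/+ XY. In these and in every other channel transcript among the members, 0 were called in MvI by edgeR, against 2 of the 8 named cilium transcripts. Of all transcripts tested, 1.30% were called higher and 6.09% lower. The difference between the channel and the cilium transcripts was not tested. The MvI intervals of the channels were broad, from -0.45 to 1.96 for AGAP003709-RD, so a 2-fold difference from dsxF-/- XX remained possible for most of them, the narrowest being nanchung at -0.04 to 0.75.

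Cuticular proteins of the RR-1 family, chitin-binding proteins of the insect exoskeleton, supplied 2 members that were nearly absent from control females. AGAP006830-RA had 1.57, 0.593 and 0.691 CPM in dsxF+/+ XX, 227, 161 and 99.7 CPM in dsxF-/- XX and 229.7, 112 and 237 CPM in dsxF+/+ XY. AGAP006828-RA had 0, 0.119 and 0.377 CPM, then 38.4, 23.3 and 29.4 CPM, then 13.5, 11.3 and 18.9 CPM in the same order. The first overlapped between both higher groups, whereas all dsxF-/- XX libraries of the second lay above all dsxF+/+ XY libraries, a difference that edgeR did not call (log2 difference -0.95 ± 0.47 SE, adjusted p = 0.328).

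**Figure D2:**
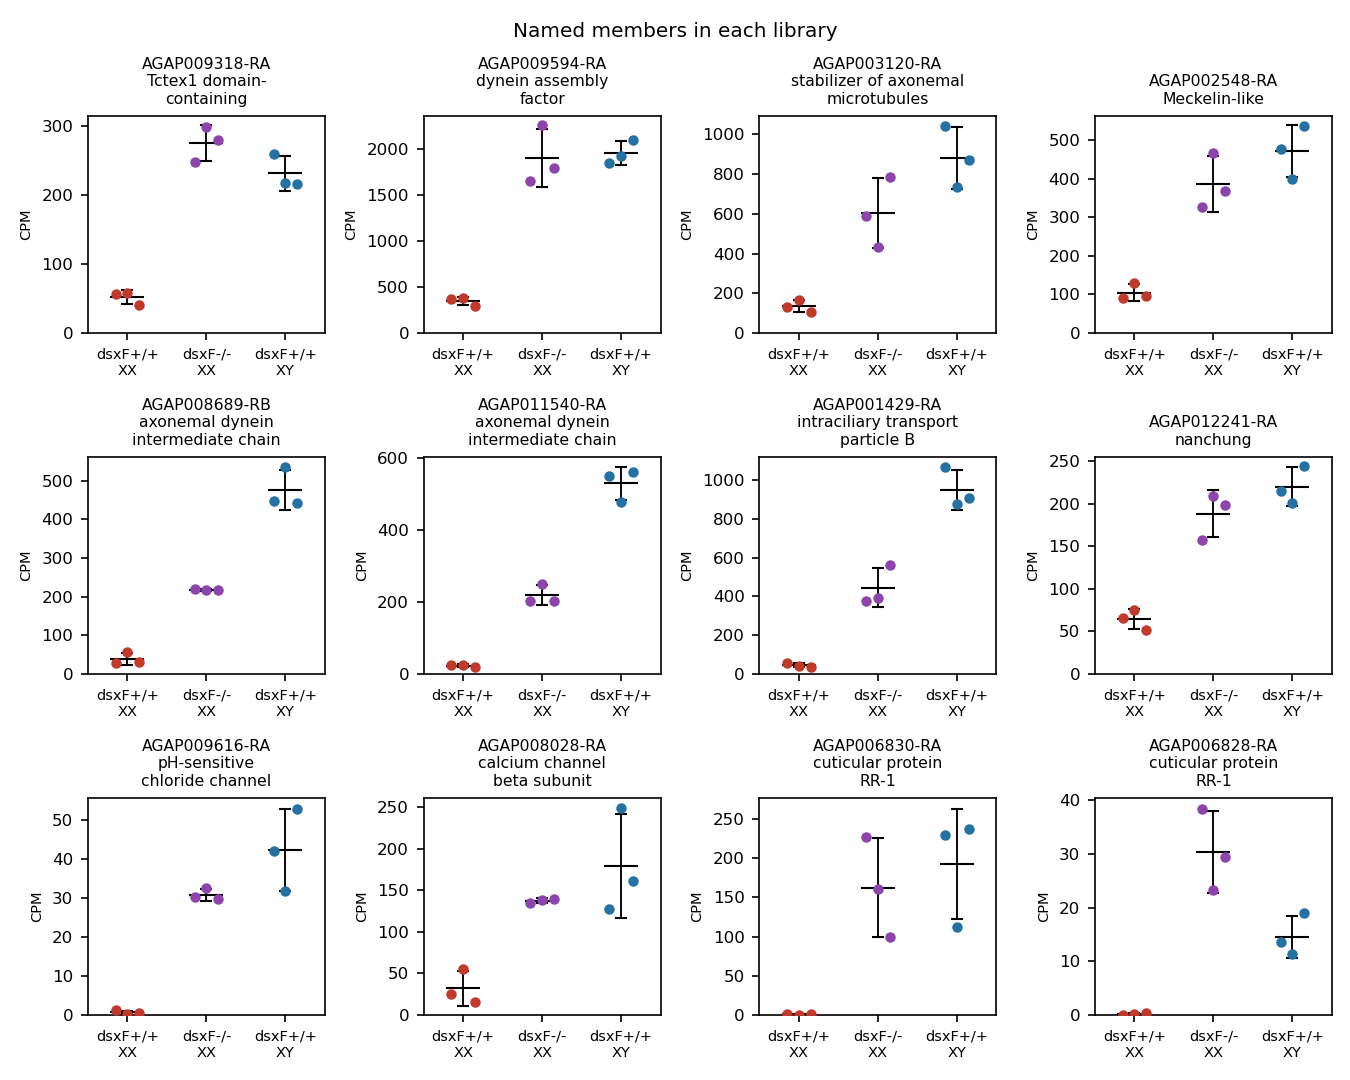
CPM of 12 named members in each library (linear axes from 0); points are libraries, the horizontal mark is the group mean and the bar is 1 SD (n = 3). For the axonemal dynein intermediate chains and AGAP001429-RA all dsxF+/+ XY points lie above all dsxF-/- XX points, while the dynein assembly factor and nanchung overlap between these 2 groups. The dsxF+/+ XX points lie lowest in every panel, as the rule requires.

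The 8 members with a rule ratio over 10 were a mixed set. The highest ratio, 218, belonged to AGAP002936-RA, an identifier without a name or term in the sources used here, with 0.815, 1.25 and 1.82 CPM in dsxF+/+ XX, 852, 713 and 782 CPM in dsxF-/- XX and 567, 507 and 606 CPM in dsxF+/+ XY. It was followed by AGAP003709-RD at 72.3, AGAP006830-RA at 48.1 and AGAP029439-RA, annotated to the cytoskeleton and cell projections, at 20.1. The others were AGAP009616-RA, AGAP006828-RA, AGAP010195-RA, annotated to signal transduction, and AGAP000051-RA, annotated to metal ion binding, with ratios between 12.6 and 17.7. AGAP010195-RA rested on very few counts in females, at 0.0582, 0 and 0.126 CPM, against 12.8, 14.8 and 14.5 CPM in dsxF-/- XX and 10.1, 8.02 and 10.3 CPM in dsxF+/+ XY.

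The most abundant member was AGAP006977-RA, for which the sources used here give neither name nor term, with 3556, 2543.5 and 1902 CPM in dsxF+/+ XX, 10625, 12773 and 10087 CPM in dsxF-/- XX and 14053, 10399.9 and 17447 CPM in dsxF+/+ XY. The higher groups overlapped, and edgeR did not call it in MvI (log2 difference 0.44 ± 0.24 SE, adjusted p = 0.391). Also at the abundant end stood AGAP007160-RB, annotated to the stress response, with 2130.2, 2133 and 1366 CPM in dsxF+/+ XX, 6664, 5316 and 6163 CPM in dsxF-/- XX and 9679.6, 8882 and 11009.7 CPM in dsxF+/+ XY. Transcripts AGAP003271.R81 and AGAP010435.R331, which the study lists among both its dyneins and its tubulins, averaged 1252 and 1047 CPM in dsxF+/+ XX, 6493 and 4894 CPM in dsxF-/- XX and 13228 and 9749 CPM in dsxF+/+ XY. For the latter pair, dsxF+/+ XY replicate 2 was well above the other male libraries, at 16813 and 15551 CPM. AGAP006115-RA, with general terms such as localization only, had 428, 775 and 491 CPM in dsxF+/+ XX, 2281, 2654 and 3071 CPM in dsxF-/- XX and 3894, 4029 and 4146 CPM in dsxF+/+ XY, and this last step was not called by edgeR (log2 difference 0.72 ± 0.24 SE, adjusted p = 0.121). AGAP006063-RA, annotated to the regulation of transcription, and AGAP011163-RA, annotated to DNA replication, averaged 1002.8 and 382 CPM in dsxF+/+ XX, 2963 and 1525 CPM in dsxF-/- XX and 3537 and 2613 CPM in dsxF+/+ XY, and neither was called in MvI. Without the 5 most abundant members, the summed level was still 8819 ± 1380.3 CPM in dsxF+/+ XX, 35075 ± 582 CPM in dsxF-/- XX and 46738 ± 1383 CPM in dsxF+/+ XY (SD, n = 3).

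The question left by the rule was how far dsxF-/- XX females went towards the male level. In MvI, 25 of the 111 members were higher in dsxF+/+ XY (22.5%, against 1.30% of the 12379 transcripts tested) and 0 were lower (against 6.09%), by edgeR at an adjusted p under 0.05. With p unadjusted, 53 members passed 0.05 upwards and 1 downwards, against 6.02% and 12.9% of all transcripts tested. DESeq2 called 38 members higher and 1 lower, where it called 2.65% and 8.33% of all transcripts, and limma-voom called 25 and 0, with 1.40% and 5.25% of all transcripts. The 1 member that DESeq2 called lower in dsxF+/+ XY was AGAP011665-RA, singled out after its values were seen, at 224, 244 and 335 CPM in dsxF-/- XX and 127, 85.1 and 143 CPM in dsxF+/+ XY. The rule sets a floor for both groups in the same way but fixes neither above the other. It does choose transcripts that are high in males against control females. All transcripts tested were not chosen in this way, so the shares and medians over them are not a matched background for the members.

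The median log2 difference of the members in MvI was 0.55, and the median over all transcripts tested was 0.02. It was above 0 for 97 members (87.4%) and for 52.0% of all transcripts, and it ranged from -1.06 to 3.05. These values use TMM scaling, and scaling by column totals, an alternative added after the data were seen, moved the median of all transcripts to -0.10, that of the members to 0.42 and the members called higher and lower to 17 and 0 (against 0.921% and 6.89% of all transcripts). In CPM, all dsxF+/+ XY libraries lay above all dsxF-/- XX libraries for 51 members (45.9%, against 7.53% of the transcripts tested), the reverse held for 6 (5.41%, against 20.1%), and the groups overlapped for 54. Of the 86 members that edgeR did not call, 47 had a 95% interval that reached past a 2-fold difference, so the data do not settle whether these had the male level in dsxF-/- XX. Over all members, called or not, the interval lay inside 2-fold for 40 (36.0%, against 46.2% of all transcripts tested).

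The calls depended on single libraries, and each group held 3. Why they did was not tested. Leaving out dsxF-/- XX replicate 1, 2 or 3 gave 14, 11 and 13 members called higher (against 0.611%, 0.525% and 0.515% of all transcripts tested), leaving out dsxF+/+ XY replicate 1, 2 or 3 gave 16, 18 and 13 (0.928%, 0.692% and 0.589%), and leaving out dsxF+/+ XX replicate 1, 2 or 3 gave 26, 26 and 20 (1.49%, 1.48% and 1.00%). The share of members called stayed between 9.91% and 23.4% over these 9 fits. Of the 25, 10 were called whichever library was left out, among them the intermediate chain AGAP011540-RA and the cytoskeletal AGAP011462-RA.

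On a log2 scale of CPM plus 0.5 on which 0 is the mean of dsxF+/+ XX and 1 the mean of dsxF+/+ XY, the median position of dsxF-/- XX over members was 0.84, with quartiles of 0.73 and 0.95. It was above 1 for 19 members, between 0.75 and 1 for 57 and below 0.75 for 35. The rule excludes low positions, since dsxF-/- XX has to clear the female level. The lowest position, 0.45, belonged to AGAP028097-RA.

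**Figure D3:**
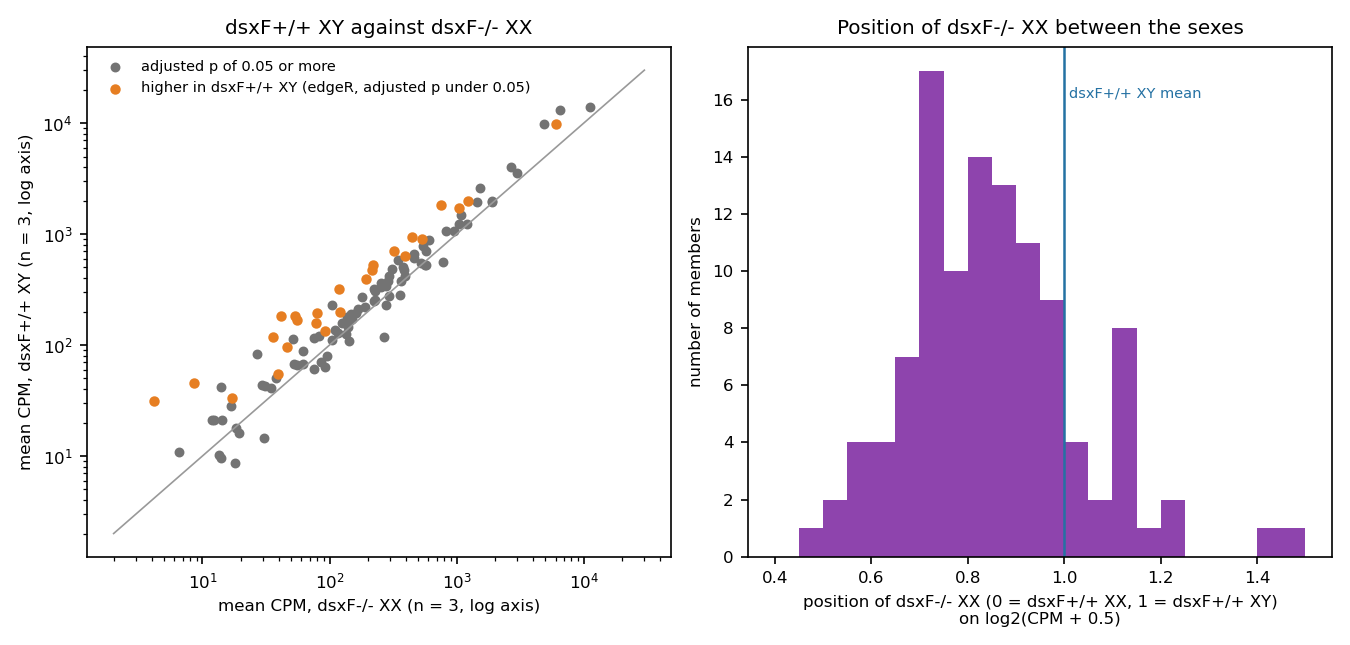
Left, mean CPM of each member in dsxF+/+ XY against dsxF-/- XX (n = 3 each, log axes), with the line of equality and the 25 members called by edgeR in orange, all above the line. Right, number of members by the position of dsxF-/- XX between the mean of dsxF+/+ XX (0) and that of dsxF+/+ XY (1) on log2(CPM + 0.5), with a median of 0.84.

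The largest difference in MvI among the members called, and the next largest, were found in scarce transcripts. AGAP028097-RA, annotated as a molecular adaptor in a nuclear complex, stood at 0.407, 0.593 and 0.189 CPM in dsxF+/+ XX, 6.14, 3.32 and 2.92 CPM in dsxF-/- XX and 27.5, 38.3 and 28.1 CPM in dsxF+/+ XY. AGAP009022-RA, annotated to the binding of carbohydrate derivatives, had 0, 0.356 and 0.189 CPM, then 7.69, 10.5 and 7.33 CPM, then 42.7, 45.7 and 46.9 CPM. The dsxF-/- XX and dsxF+/+ XY libraries were far apart in both, and the log2 differences in MvI were 3.05 ± 0.40 (SE; edgeR adjusted p = 0.00263) and 2.53 ± 0.41 (SE; edgeR adjusted p = 0.00731).

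Further large differences in MvI were found for AGAP029978.R817 (2.24 ± 0.35), AGAP029905-RA (1.92 ± 0.35), AGAP006118-RA (1.83 ± 0.19) and AGAP001570-RA, annotated to the microtubule (1.76 ± 0.35), all on the log2 scale with SE and with edgeR adjusted p between 0.000862 and 0.0158. The call of AGAP001570-RA was lost without dsxF-/- XX replicate 2 or 3 (edgeR adjusted p = 0.0676 and 0.0657). AGAP006118-RA had the smallest p of all members, with 35.2, 34.0 and 39.1 CPM in dsxF-/- XX against 130.5, 104 and 119 CPM in dsxF+/+ XY. AGAP003541-RA, annotated to pyrophosphatase activity, was at 146, 145 and 109 CPM in dsxF+/+ XX, 301, 326 and 329.6 CPM in dsxF-/- XX and 704, 660.0 and 759 CPM in dsxF+/+ XY. Its dsxF-/- XX libraries were tightly grouped at less than the level of any male library (log2 difference 1.28 ± 0.16 SE, edgeR adjusted p = 0.00219). AGAP000051-RA and AGAP007160-RB were also called, at 1.39 ± 0.30 and 0.83 ± 0.20 (SE; edgeR adjusted p = 0.0248 and 0.0352). Over the 9 settings other than the leave-outs, these calls were lost in 2 and 3. Both calls were lost with column totals (edgeR adjusted p = 0.0515 and 0.118) and in 5 and 6 of the 9 fits with 1 library left out (edgeR adjusted p between 0.0599 and 0.0936, and between 0.0668 and 0.157), and the second also without the filter on low counts (edgeR adjusted p = 0.0854).

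In the opposite direction, the dsxF-/- XX libraries all exceeded the dsxF+/+ XY libraries for AGAP002936-RA, AGAP006828-RA, AGAP010195-RA, AGAP007597.R77, AGAP011665-RA and AGAP006521-RA. Their log2 differences ran from -1.06 to -0.14. None of the 6 was called by edgeR with all 9 libraries. AGAP007597.R77, which the study lists among its dyneins, was at 88.8, 86.3 and 80.2 CPM in dsxF-/- XX and 69.6, 79.1 and 62.2 CPM in dsxF+/+ XY.

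Counts were made per transcript, and 31 members belonged to 26 genes with more than 1 transcript, whereas 80 belonged to genes with 1. When the transcripts of a gene were summed, 10 of the 26 genes still met the rule and 16 did not, and over all 106 member genes MvI gave 20 sums higher and 1 lower in dsxF+/+ XY (edgeR adjusted p under 0.05, against 1.57% and 7.66% of all gene sums). Kallisto shares reads among transcripts of a gene that overlap in sequence, so the division between them is less certain than their sum, and a high member and a low partner are not independent measurements.

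In AGAP029978, 2 transcripts moved in opposite directions. Its member AGAP029978.R817 had 6.86, 9.12 and 3.32 CPM in dsxF+/+ XX, 40.0, 57.1 and 28.4 CPM in dsxF-/- XX and 151, 179.5 and 214 CPM in dsxF+/+ XY. The transcript AGAP029978.R815 went the other way, at 205, 257 and 159.6 CPM, then 107, 119 and 112 CPM, then 48.9, 45.8 and 56.4 CPM. As a share of the gene, the member made up 2.73% ± 0.746, 23.5% ± 5.07 and 75.4% ± 1.77 (SD, n = 3), while the gene's sum was 227 ± 53.1, 175 ± 24.3 and 240.3 ± 37.6 CPM. AGAP029978.R815 was lower than in dsxF+/+ XX in both other groups (log2 differences -2.02 and -0.98, edgeR adjusted p = 0.000101 and 0.0111) and lower in males than in intersex females (-1.04, edgeR adjusted p = 0.00923). The difference between dsxF-/- XX and dsxF+/+ XX was not called without dsxF-/- XX replicate 1 or 3 (edgeR adjusted p = 0.0596 and 0.0517).

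The large-conductance potassium channel gene AGAP003709 had 6 transcripts. Its most abundant transcript in females, AGAP003709-RB, varied widely within every group, at 63.6, 306 and 93.0 CPM in dsxF+/+ XX, 259, 54.3 and 118 CPM in dsxF-/- XX and 95.6, 345 and 67.6 CPM in dsxF+/+ XY. The member AGAP003709-RD made up 0.132% ± 0.224, 32.2% ± 13.4 and 36.8% ± 10.7 of the gene (SD, n = 3). The gene's sum was 236 ± 189.6, 269 ± 134 and 357 ± 289.7 CPM, and the sum was not called in any of the 3 comparisons (edgeR adjusted p between 0.471 and 0.951).

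In the calcium channel beta gene AGAP008028, the member AGAP008028-RA made up 49.9% ± 9.05 of the gene in control females, 94.0% ± 1.52 in intersex females and 97.0% ± 0.690 in males (SD, n = 3). Its partner AGAP008028-RC was at 13.4, 30.0 and 20.3 CPM in dsxF+/+ XX and was under 5 CPM in all 6 other libraries. The sum of AGAP008028 was 61.2 ± 31.4, 146.5 ± 1.17 and 184.8 ± 64.9 CPM in the same order of groups (SD, n = 3) and did not meet the rule. In AGAP011462, annotated to the cytoskeleton, the member AGAP011462-RA went from 92.8, 107 and 70.6 CPM to 625, 944 and 693 CPM and to 1924, 1439 and 2073 CPM, while AGAP011462-RB fell in dsxF+/+ XY against dsxF+/+ XX by 1.09 on the log2 scale (edgeR adjusted p = 0.0346). That call was lost in 7 of the 9 fits with 1 library left out (edgeR adjusted p between 0.0515 and 0.116) and was kept with a block by column number (edgeR adjusted p = 0.0161). The sum of AGAP011462 met the rule, and so did that of the dynein intermediate chain gene AGAP008689, in which the second transcript AGAP008689-RA averaged 47.7, 44.9 and 72.0 CPM. The 2 members of the chloride channel gene AGAP005599 were accompanied by 6 other transcripts, and its sum was 97.9 ± 82.2, 428 ± 130 and 659 ± 435 CPM (SD, n = 3), with overlap between dsxF-/- XX and dsxF+/+ XY.

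Over the 26 genes there were 43 transcripts that were not members. In dsxF+/+ XY against dsxF+/+ XX, 12 of these 43 were higher and 5 lower by edgeR, where it called 11.7% and 18.1% of all transcripts tested. In dsxF-/- XX against dsxF+/+ XX, 6 of the 43 were higher and 1 lower, where it called 4.18% and 6.87% of all transcripts tested. Leaving out 1 library moved these counts to between 9 and 13 and between 3 and 5 in the first comparison. In the second it moved them to between 1 and 7, with 1 without dsxF+/+ XX replicate 3 and 2, 3 and 3 without dsxF-/- XX replicate 1, 2 or 3, and to between 0 and 1. For comparison, all 111 members were called higher in the first of these and 110 in the second, which the rule all but ensures. The exception was AGAP008100-RB.

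**Figure D4:**
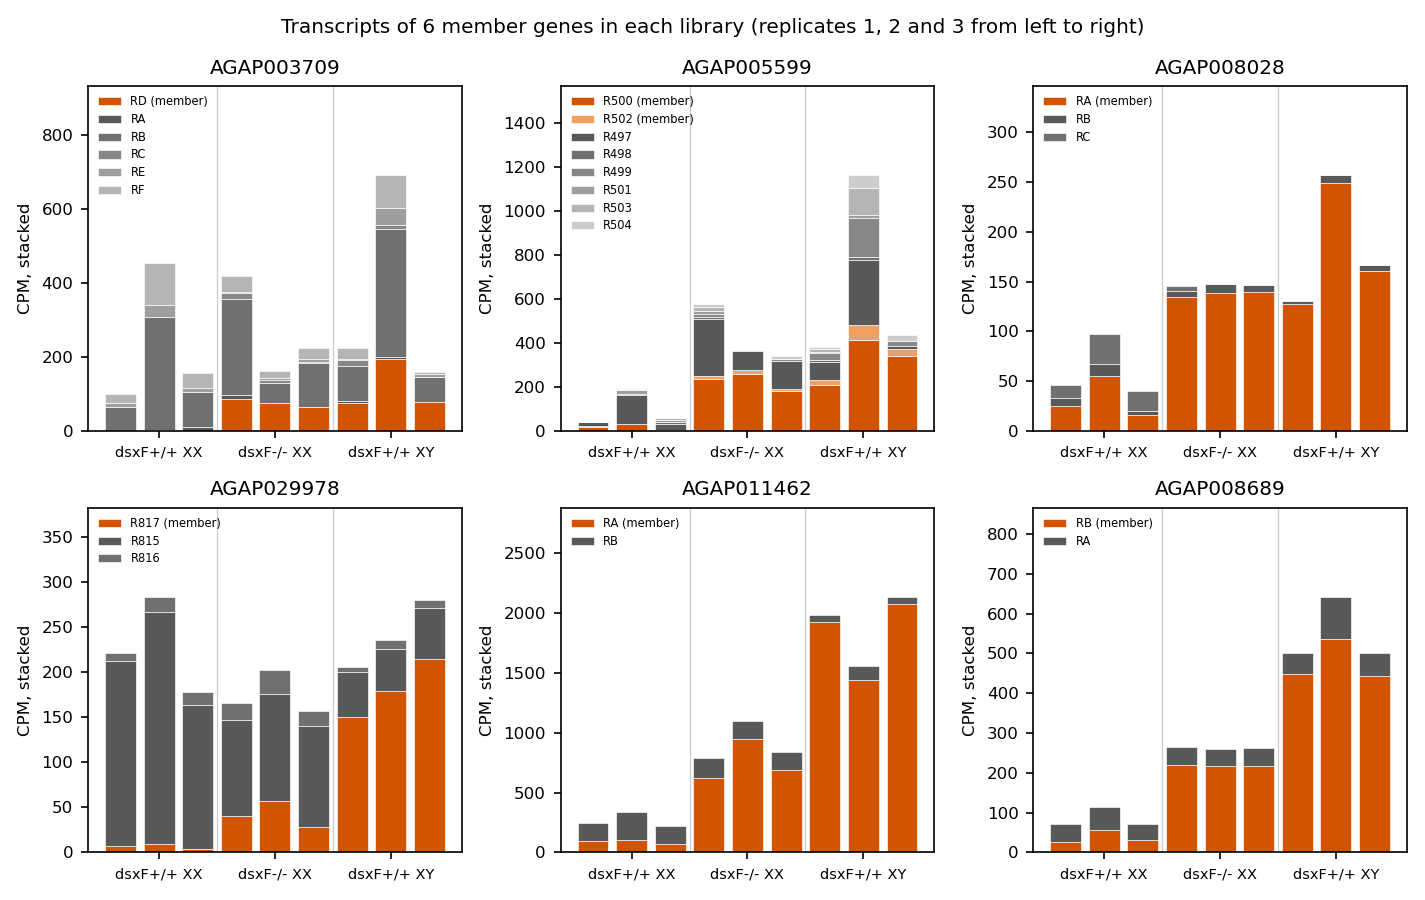
Stacked CPM of all transcripts of 6 member genes in each library (bars from 0, replicates 1 to 3 of each group from left to right); members are in orange and the other transcripts in grey. In AGAP029978 the member is high where another transcript is low, in AGAP003709 its share rises within a total that varies widely within groups, and in AGAP011462 and AGAP008689 the total rises with it.

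The lists that the study drew up from these same libraries show which neighbours of the members stayed outside. They were chosen on these data, so their directions are not independent evidence. Of 39 motor and ciliary transcripts that the study brought forward 8 were members, of 33 channel and receptor transcripts 6, and of 10 cuticle transcripts 2. Just outside were Tektin-3 (AGAP000219-RA), a filament protein of ciliary microtubules, with a rule ratio of 1.98, and a second stabilizer of axonemal microtubules (AGAP012726-RA) with 1.96. The transport protein nompB (AGAP006324-RA), needed in Drosophila to build the sensory cilium, had a ratio of 1.68 and the Piezo-type channel AGAP009276-RB had 1.51.

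Over all transcripts tested in MvI, edgeR called 1.30% higher in dsxF+/+ XY and 6.09% lower. The whole motor list had 2 transcripts higher and 1 lower, and its median log2 difference was 0.40. The 1 lower was Tektin-2 (AGAP008275-RA), at 24.0, 22.1 and 31.3 CPM in dsxF-/- XX and 12.4, 10.3 and 10.8 CPM in dsxF+/+ XY (log2 difference -1.09 ± 0.20 SE, edgeR adjusted p = 0.0116). The channel list had 3 higher and 0 lower with a median of 0.74, none of the 3 being members, and the cuticle list had 1 higher and 0 lower among its 8 tested with a median of 0.12.

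The gene ontology lists hold only transcripts that the study's enrichment analysis listed from sets higher in males, and not every transcript of a term. Of the transcripts so listed, members made up 4 of 8 for the axonemal dynein complex and 6 of 16 for axoneme assembly. They made up 8 of 25 for the axoneme and 10 of 38 for cilium assembly. In intraciliary transport 1 of 14 was a member. In the cilium assembly list MvI gave 5 transcripts higher and 1 lower (against 1.30% and 6.09% of all transcripts tested). Of those 5, 4 were members.

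The module has no sharp edge. The 3 members nearest to the threshold had ratios of 2.017, 2.031 and 2.037, the second being AGAP008533-RA, annotated to cell projection organization, and the 3 nearest transcripts outside had 1.998, 1.990 and 1.988. There were 14 members with a ratio between 2 and 2.1 and 21 transcripts between 1.9 and 2, and 67 members were below 3. The highest female library, which sets the ratio, was dsxF+/+ XX replicate 2 for 70 members, replicate 1 for 31 and replicate 3 for 10. Without dsxF+/+ XX replicate 2, 338 transcripts met the rule, so the number of members rests largely on that library. That the members themselves met the rule without any single library was fixed in advance, since the rule can only loosen with fewer libraries. The lowest of the other 6 libraries was a dsxF-/- XX library for 90 members and a dsxF+/+ XY library for 21.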

How the data were processed

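RNA from pooled pedicels was made into libraries with the SMART-Seq v4 kit, which does not mark the strand. The authors checked reads with FastQC and MultiQC and assigned them to the AgamP4.12 transcripts of An. gambiae with kallisto. The values they deposited are estimated counts of each transcript, without correction for sequencing depth or transcript length. Versions of these tools are not given in the sources used here. All 9 columns were matched to samples by the labels. Products and gene ontology terms were taken from identifiers and names in the study's tables, since the reference table matched 0 identifiers, so that sequences and positions were not analysed here. Of the 111 members, 74 had a name or a term.

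CPM were computed from the unrounded table. For tests the estimated counts were rounded, filtered with filterByExpr, scaled by TMM and fitted with edgeR 4.0.16 (R 4.3.3), all 3 groups in 1 model. Quasi-likelihood tests were called at an adjusted p (Benjamini-Hochberg over the 12379 transcripts tested) under 0.05. The 3687 other transcripts were not tested, and all 111 members were. Intervals are 95% intervals of that fit and cover the spread between libraries. The fit and the rule were tested on simulated data. The alternatives were DESeq2 1.42.0, limma-voom (limma 3.58.1), only the groups compared, DESeq2 size factors, column totals, other filters and thresholds, gene sums, blocks by replicate number and by the order of the numbers in the column names, and each library left out.

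The members and lists were chosen with earlier results of these data known. The transcripts named are members with a product name in the study, the 10 highest rule ratios, those with a name or term among the 10 most abundant members (apart from a second transcript of AGAP007160), the 5 largest called MvI differences, up to 4 members of each list, the transcripts at the threshold and partners of members in genes with several transcripts. An identifier with neither name nor term is named under the highest ratios or MvI differences only, at most 2 of them, apart from those singled out after their values were seen (AGAP006977-RA, the most abundant member, AGAP007597.R77, AGAP011665-RA and AGAP006521-RA, where dsxF-/- XX exceeded dsxF+/+ XY, AGAP008100-RB, Tektin-2 and the transcripts just outside the lists).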

Additional observations from a re-analysis of the deposited data

How the results depend on the processing

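A fold of 1.5 in the rule gave 248 members and a fold of 4 gave 27. Leaving out 1 library at a time gave between 113 and 338, the latter without dsxF+/+ XX replicate 2, and all 111 members stayed in, since the rule can only loosen with fewer libraries. A minimum of 1 or 5 CPM gave 111 and 110 members. With TMM scaling 104 transcripts met the rule, of which 101 were members. With gene sums 91 genes met it, of which 90 were among the 106 member genes. In MvI, the members called higher ranged from 11 to 26 and those called lower from 0 to 1 with 1 library left out. DESeq2 called 38 higher and 1 lower, and an adjusted p under 0.01 kept 11 higher (against 0.372% of all transcripts tested). With only the groups compared 2 were lower (AGAP011665-RA and AGAP006521-RA), and 1 was lower among gene sums. The replicate block gave 19 higher and 0 lower, and the block by column number 25 and 0. These blocks called 0.969% and 1.23% of all transcripts tested as higher. Same-numbered dsxF+/+ XY and dsxF-/- XX libraries had deviations correlated at r = -0.19, -0.06 and 0.02, so the numbers were not taken as pairs. In the order of the column numbers the 3 pairs of dsxF+/+ XY and dsxF+/+ XX libraries correlated at r = 0.21, 0.23 and 0.45. In the same order dsxF-/- XX correlated with dsxF+/+ XX at r = 0.09, -0.28 and -0.15, and dsxF+/+ XY with dsxF-/- XX at 0.22, -0.15 and -0.06. Whether the column numbers mark batches is not stated, and the main fit used no block. The block by this order was fitted to all 9 libraries. It was chosen for these transcripts after seeing the data, like the leave-outs given next. With it, 13 other transcripts of the member genes were higher and 5 lower in dsxF+/+ XY against dsxF+/+ XX, against 12 and 5 without it. With 1 library left out these counts ran from 9 to 13 and from 3 to 5, and those in dsxF-/- XX against dsxF+/+ XX from 1 to 7 and from 0 to 1. The median log2 difference of the members stayed between 0.42 and 0.60. Among 29 named members not called, 3 changed sign without passing the threshold. AGAP013430-RA was -0.0456 with column totals and ran from -0.27 to 0.64 with 1 library left out, AGAP000990-RA was -0.0960 and ran from -0.19 to 0.26, and AGAP006134-RA ran from -0.33 to 0.0244. The 14 named members called kept their direction in every setting tried, but calls were lost in 23 of 126 fits with 1 library left out and in 5 of 126 fits under other settings. Among named members not called, calls were gained in 2 of 261 fits with 1 library left out and 6 of 261 others: AGAP003271.R81 and AGAP006115-RA with DESeq2 (adjusted p = 0.0268 and 0.0334), AGAP003271.R81 with only the groups compared (edgeR adjusted p = 0.0441) and without dsxF+/+ XX replicate 2 (edgeR adjusted p = 0.0282), and the other 4 as lower in dsxF+/+ XY for AGAP011665-RA and AGAP006521-RA. The cause of these changes was not tested.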

Other observations

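The male side of the rule was met by 257 transcripts and the intersex side by 163, each counted without regard to the other group. Both counts include the 111 members. Of the 111 members, 37 had neither a product name nor a gene ontology term in the sources used here. There were 5 pairs of member genes with consecutive identifier numbers (10 genes). Where these genes lie was not analysed here.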
